A study of Sus scrofa with 6 samples.

Results

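The antioxidant enzymes of pig skeletal muscle were compared between the longissimus dorsi muscle (LDM) and the psoas major muscle (PMM), with attention to the forms that work in mitochondria and those that work in the cytosol. The list held 10 genes, namely SOD1, SOD2, SOD3, CAT, GPX1, GPX3, GPX4, PRDX3, PRDX6 and TXN. Probes were taken when their gene name was one of these, when their description held one of these symbols in brackets, or when it named a superoxide dismutase, a glutathione peroxidase or a peroxiredoxin. This took 27 of the 43603 probes, and 1 probe for PRDX3 was added because its gene number, but not its description, leads to that gene. Of the 10 listed genes, 9 had a probe, and no probe was named GPX3. The wording also took in 9 further genes (CCS, GPX2, GPX5, GPX6, GPX8, PRDX1, PRDX2, PRDX4 and PRDX5), so that 18 of the 3518 genes named on the array are described.

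All samples came from 3 unrelated female Landrace pigs that were slaughtered at 210 days of age after a day without feed. LDM runs along the back and PMM lies under the lumbar spine. The abstract and introduction of the study call PMM oxidative and LDM glycolytic, and so do the fibre measures in its results, where a single sentence has the names the other way round. Each muscle had 3 one-colour Agilent arrays, numbered as replicates 1 to 3, and neither the labels nor the methods tie a number to an animal. The extraction text of the labels speaks of adipose tissue. Of the 18 skeletal muscle markers, 16 were tested, and their mean log2 signal lay between 8.01 and 8.56 on the LDM arrays and between 8.39 and 9.12 on the PMM arrays, above the 75th percentile of all spots on each array. The mean of the 10 tested adipocyte markers was also above that percentile. It was lower than that of the muscle markers, at 1.97 to 2.92 in LDM and 1.80 to 2.78 in PMM. The samples were therefore treated as muscle. In bulk tissue a smaller share of cells of a type and less RNA in each cell cannot be told apart.

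Mitochondria and oxidases release superoxide, which superoxide dismutases convert into hydrogen peroxide. SOD2, the manganese enzyme, does so in the mitochondrial matrix, SOD1, the copper-zinc enzyme, mainly in the cytosol, and SOD3 outside the cell. Hydrogen peroxide is then removed by catalase in peroxisomes, by glutathione peroxidases and by peroxiredoxins, which are reduced again by thioredoxin. Muscle with many mitochondria is known for a high capacity of several of these enzymes.

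The probes are short stretches of these transcripts, and 30 bases of the 60 of each are shown for SOD2, PRDX3, SOD1 and PRDX6, which were set against each other as mitochondrial and cytosolic forms, and for PRDX2, which had the largest change. They show that the 3 probes of SOD2 read separate stretches, starting at bases 2336, 1777 and 3370 of the transcript in the files. Capitals mark AATAAA, the usual polyadenylation signal, searched in the probe as given.

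SOD2 probe A_72_P023251: aagagactagtggtacctgtgtgtttatgc
SOD2 probe A_72_P268784: aagttttatgtggtttcgtttccccagtaa
SOD2 probe A_72_P341278: ggatatgcatggtacatgctaaaaatccta
PRDX3 probe A_72_P341458: atccgactgattccaaagaatactttgaga
SOD1 probe A_72_P181041: actcaagcctgcAATAAAcaaatactctct
PRDX6 probe A_72_P165176: ttttaggaatcagcaAATAAAccctttgtt
PRDX6 probe A_72_P380838: atgcctgtgacagctcgtgtggtatttatt
PRDX2 probe A_72_P383583: cttttggtgaccAATAAAgtattagggaca

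The signal was in 5 of the 28 probes and in 12.1% of all probes on the array. The longest run of bases shared by any pair of the 28 probes was 11, so no probe of one gene was a near copy of the probe of another. The GC content of the 28 probes ranged from 35.0% to 71.7%, the highest being that of SOD3.

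Of the 28 probes, 22 entered the test, and each of the 22 stood clear of the background on every one of the 6 arrays, by the scanner software's own mark. The other 6 did not do so on the 3 arrays of either muscle. None of the 22 probes differed between the muscles at an adjusted p under 0.05 in limma, with 8 of all 25834 tested probes called (0.031%). At an unadjusted p under 0.05 the count was again 0 of 22, against 2.63% of all tested probes, and the lowest unadjusted limma p was 0.096. The log2 changes of the 22 probes, PMM over LDM, ran from -0.41 to 0.59 with a median of 0.096, beside a median of -0.04 over all tested probes. PMM had the higher mean for 15 probes and the lower mean for 7, where some genes count with several probes. With the brightest probe per gene the median change of 15 genes was 0.056, beside -0.012 over all genes so taken. The muscles did not overlap for 2 of the 22 probes, those of PRDX2 and PRDX5, against 6.0% of all tested probes. Replicate numbers coincided with the day of scanning, so the differences between arrays of the same number are also those within a scan day. Among the 21 probes with a value in all 3 such pairs, 5 were higher in PMM in every pair (background 16.4%) and 2 were lower in every pair (background 19.4%). With the replicate number as a block in limma the count of members called stayed at 0 of 22 (background 0.0658%), and the lowest adjusted p was 0.376. In that fit 3 of the 22 probes, those of PRDX2, CCS and GPX2, had an unadjusted p under 0.05, beside 2857 of all 25834.

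**Figure D1:**
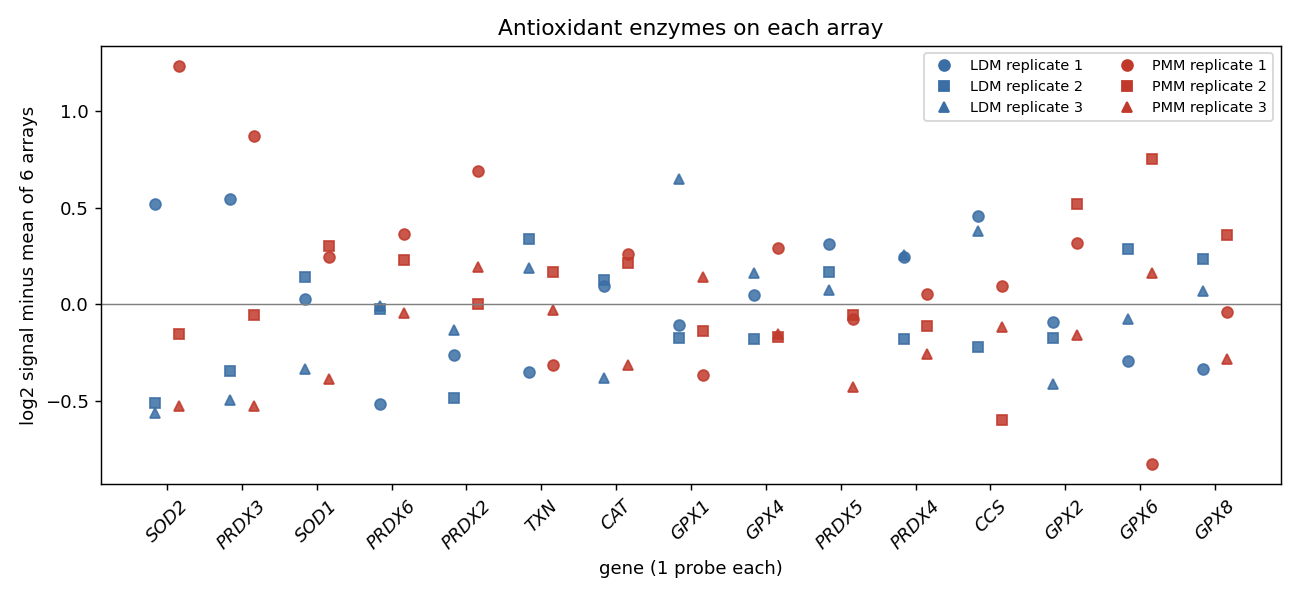
Normalized log2 signal of 15 antioxidant genes, 1 probe each, on the 6 arrays, given as the difference from the mean of that probe over the 6 arrays. Blue symbols are LDM and red symbols are PMM, with circles, squares and triangles for replicates 1, 2 and 3; SOD2 and PRDX3 have both circles at the top, and PRDX2 and PRDX5 are the genes whose colours do not overlap.

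SOD2 had the widest spread among the genes of the mitochondrial and cytosolic comparison. For its probe A_72_P023251 the log2 signal was 5.46, 4.43 and 4.37 on the LDM arrays of replicates 1, 2 and 3, and 6.17, 4.78 and 4.41 on the PMM arrays. Replicate 1 was highest in each muscle, and the muscles overlapped. The log2 change was 0.37 (SE 0.52, 95% interval -0.81 to 1.55, n = 3 arrays per muscle), with a limma adjusted p of 1.0, and the interval of the fold ran from 0.569 to 2.93. Within pairs the difference was 0.71, 0.35 and 0.036 in the order of the replicate numbers. With the replicate block the SE of the change was 0.20 and the limma adjusted p was 0.57. Without PMM replicate 1 the change was -0.16.

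The other SOD2 probes gave the same picture. Probe A_72_P268784 had log2 signals of 1.49, 0.043 and -0.073 in LDM and 2.05, 0.56 and -0.084 in PMM, a change of 0.35 (SE 0.62). Probe A_72_P341278 had 6.77 and 6.29 in LDM, its LDM replicate 3 spot being an outlier that was left out, and 7.52, 6.58 and 6.11 in PMM. Its change was 0.21 (SE 0.48) over all arrays and 0.52 (SE 0.24) with the replicate block, which leaves only the pairs with both values to set the difference. A probe whose description names the manganese superoxide dismutase of cattle had 2.67, 2.13 and 1.61 in LDM and 3.23, 2.25 and 1.77 in PMM, a change of 0.28 (SE 0.45). On each of the 4 probes the signal was highest on the arrays of replicate 1 in both muscles.

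PRDX3, the peroxiredoxin of the mitochondrial matrix, followed a similar order of arrays. Its log2 signal was 4.31, 3.42 and 3.27 in LDM and 4.64, 3.71 and 3.24 in PMM. The muscles overlapped, with the lowest and the second highest value in PMM replicate 3 and LDM replicate 1. The log2 change was 0.19 (SE 0.45, 95% interval -0.83 to 1.22, limma adjusted p = 1.0), and the pairs differed by 0.32, 0.29 and -0.032. With the replicate block the SE was 0.17 and the limma adjusted p was 0.74. Normexp background correction turned the change to -0.12, and leaving out PMM replicate 1 turned it to -0.19.

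SOD1, the main superoxide dismutase of the cytosol, had a narrower spread than SOD2. Its log2 signal was 6.31, 6.43 and 5.95 in LDM and 6.53, 6.59 and 5.90 in PMM, so that replicate 3 was the lowest in each muscle. The change was 0.11 (SE 0.33, 95% interval -0.64 to 0.85), and the limma adjusted p was 1.0. With the replicate block the SE was 0.17 and the limma adjusted p was 0.85. A probe described by the copper-zinc enzyme of the goat changed by 0.087 (SE 0.28). It was dim, with mean log2 signals of -1.14 in LDM and -1.05 in PMM. Its letters as given had 0 reading frames free of stop codons, against 1 on the opposite strand. Whether it reads the SOD1 transcript was not tested. CCS, the chaperone that loads copper into SOD1, was lower in PMM in all 3 pairs, the log2 differences being -0.36, -0.38 and -0.50. Its log2 signal was 0.98, 0.30 and 0.91 in LDM and 0.62, -0.072 and 0.40 in PMM, so the muscles overlapped, and its change of -0.41 (SE 0.34) had an adjusted p of 1.0 in limma and of 0.445 with the replicate block. It was -0.63 without LDM replicate 2 and -0.22 without PMM replicate 2.

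PRDX6, a peroxiredoxin of the cytosol that also acts on phospholipids, had 2 probes. Probe A_72_P165176 had log2 signals of 3.83, 4.32 and 4.34 in LDM and 4.71, 4.58 and 4.30 in PMM, a change of 0.36 (SE 0.31, limma adjusted p = 1.0). With the replicate block its SE was 0.23 and its limma adjusted p was 0.63. Probe A_72_P380838 had 1.35, 1.34 and 1.53 in LDM and 2.20, 1.56 and 1.25 in PMM, a change of 0.26 (SE 0.34). On both probes the pair of replicate 1 had the largest difference, 0.88 and 0.85, and the pair of replicate 3 had differences of -0.039 and -0.28. The change of probe A_72_P165176 was 0.20 without LDM replicate 1, 0.16 with slide as a random block and 0.072 under normexp background correction.

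**Figure D2:**
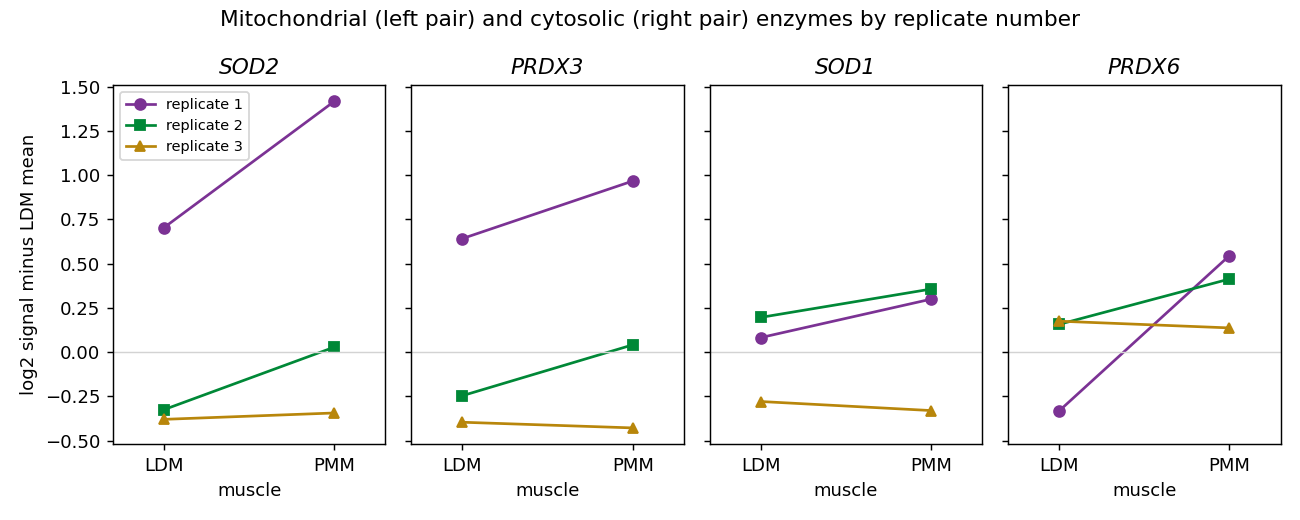
Log2 signal of SOD2 (probe A_72_P023251), PRDX3, SOD1 and PRDX6 (probe A_72_P165176) in LDM and PMM as the difference from the mean of the 3 LDM arrays, with a line joining the arrays of the same replicate number. The lines of replicate 1 lie apart above the others for SOD2 and PRDX3, and the replicate 1 line of PRDX6 climbs by 0.88.

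Whether the mitochondrial form changed more than the cytosolic form was tested as the difference of log2 signals within each array, over the probes with values on all 6 arrays, which left 2 probes for SOD2. SOD2 minus SOD1 was -2.84, -4.19 and -3.80 in LDM and -2.42, -3.92 and -3.74 in PMM, where the level itself compares different probes and carries no meaning. Its change from LDM to PMM was 0.25, with SDs of 0.70 and 0.82 in LDM and PMM, and an exact two-sided permutation p of 0.6 (adjusted over the 2 contrasts 0.9, the smallest possible p being 0.1). All 3 pairs were in the same direction, at 0.42, 0.27 and 0.063, for which an exact sign flip gave p = 0.25, the smallest that 3 pairs allow. Leaving out single arrays moved the change between -0.22 and 0.64, with negative values without PMM replicate 1 and without LDM replicate 2 (-0.038). PRDX3 minus PRDX6 changed by -0.12 (exact permutation p = 0.9, adjusted 0.9), with pair differences of -0.54, 0.048 and 0.13. That change was 0.30 without LDM replicate 1 and 0.027 without PMM replicate 3. Neither change was beyond the spread between arrays of the same muscle. The SD of the pair differences was 0.18 for SOD2 minus SOD1 and 0.36 for PRDX3 minus PRDX6. With 3 pairs the sign flip could not reach a p under 0.25.

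Taken by place in the cell, with 1 probe per gene, both mitochondrial genes (SOD2 and PRDX3) had a higher mean in PMM, with log2 changes of 0.37 and 0.19. Of the 4 cytosolic genes, 3 had a higher mean in PMM (PRDX2, PRDX6 and SOD1), and the median of the 4 changes was 0.24. Of the 3 genes whose proteins occur in several compartments (GPX1, GPX4 and PRDX5) none had a higher mean in PMM, and their changes lay between -0.37 and -0.021. No gene of any of these places passed the limma test.

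**Figure D3:**
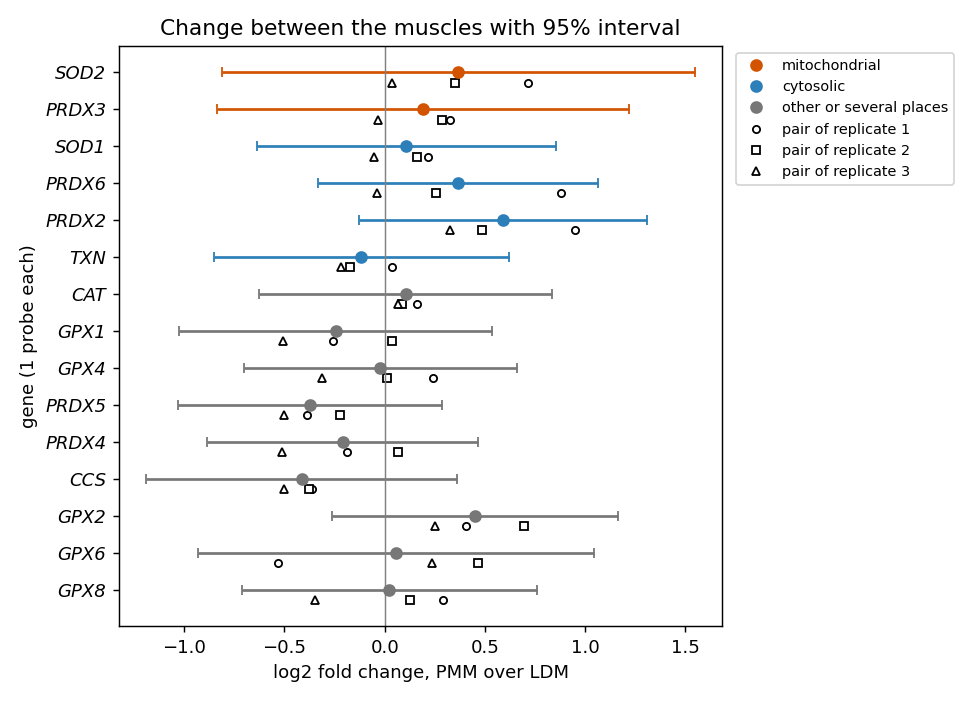
Log2 fold change of PMM over LDM for 15 antioxidant genes, 1 probe each, as a filled circle with its 95% interval from limma, coloured by the place of the protein, and as open symbols the difference within each pair of arrays of the same replicate number. All 15 intervals include 0.

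PRDX2, an abundant peroxiredoxin of the cytosol that is also plentiful in red blood cells, had the largest change of the 22 tested antioxidant probes. Its log2 signal was 7.40, 7.17 and 7.52 in LDM and 8.35, 7.66 and 7.85 in PMM, and every PMM array lay above every LDM array. The change was 0.59 (SE 0.31, 95% interval -0.13 to 1.31), a fold of 1.503, with an adjusted p of 1.0 in limma and of 0.376 with the replicate block, and an exact permutation p of 0.1, the smallest that 3 arrays against 3 allow. The change was 0.39 without PMM replicate 1 and 0.26 under normexp. The probe is named only from a partial match of its transcript to the dog protein. No probe carried the name of any of the 10 erythrocyte markers, but haemoglobin probes could be found by their descriptions. Of the haemoglobin probes, picked after the values of PRDX2 had been seen, that for the alpha chain differed by -0.11, 0.025 and -0.19 within the pairs and that for the beta chain by 2.05, 0.48 and 0.65. The muscles overlapped on both probes. The beta chain probe had log2 signals of -3.78, -0.61 and -0.96 in LDM and -1.73, -0.14 and -0.31 in PMM, lowest on LDM replicate 1. The alpha chain probe is named from a partial match to the tapir protein. How the haemoglobin probes bear on the PRDX2 values was not tested.

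PRDX5, which works in mitochondria, peroxisomes and the cytosol, was the other gene without overlap. Its log2 signal was 3.84, 3.70 and 3.61 in LDM and 3.46, 3.47 and 3.10 in PMM, every PMM array lying below every LDM array. The change was -0.37 (SE 0.29, limma adjusted p = 1.0, exact permutation p = 0.1). PRDX4, a peroxiredoxin of the endoplasmic reticulum, changed by -0.21 (SE 0.30). The probe described as peroxiredoxin 1, a cytosolic enzyme, stood clear of the background on only 1 array of each muscle and was not tested.

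The glutathione peroxidases use glutathione to reduce peroxides, and most of them are selenoproteins. GPX1, the widespread form, had log2 signals of 5.26, 5.19 and 6.01 in LDM and 4.998, 5.23 and 5.51 in PMM, with replicate 3 highest in each muscle and a change of -0.24 (SE 0.34). GPX4, which reduces lipid peroxides in membranes, had changes of 0.022 (SE 0.32) and -0.021 (SE 0.30) on its 2 probes, the values of the brighter probe being 5.83, 5.61 and 5.95 in LDM and 6.08, 5.62 and 5.63 in PMM. The 95% interval of that brighter probe ran from 0.614-fold to 1.58-fold, and its SE was 0.19 on the log2 scale with the replicate block.

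GPX2, best known from the lining of the gut, was dim, with log2 signals of -2.71, -2.79 and -3.03 in LDM and -2.30, -2.10 and -2.78 in PMM. It was higher in PMM in all 3 pairs, and its change of 0.45 (SE 0.31) had an adjusted p of 1.0 in limma and of 0.445 with the replicate block. The remaining tested probes were those of GPX6, with a change of 0.056 (SE 0.43), and GPX8, with a change of 0.024 (SE 0.32). GPX5 and the second probe of GPX6 did not stand clear of the background on any array. GPX3, the secreted form of plasma, had no probe of its own, and 2 probes for CAPNS1, a calpain subunit, that also list an accession of GPX3 were not counted for it.

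Catalase, which splits hydrogen peroxide in peroxisomes, had log2 signals of 7.03, 7.06 and 6.56 in LDM and 7.20, 7.15 and 6.62 in PMM. All 3 pairs were higher in PMM, by 0.16, 0.086 and 0.064, and the spread between replicates was larger than these differences, with a change of 0.10 (SE 0.32, limma adjusted p = 1.0). TXN, thioredoxin, which hands electrons to the peroxiredoxins, had 4.49, 5.18 and 5.03 in LDM and 4.53, 5.01 and 4.81 in PMM on probe A_72_P177678, a change of -0.12 (SE 0.32), and -0.044 (SE 0.32) on its other probe. SOD3 stood clear of the background on 2 of the 3 arrays of LDM but on 0 of the 3 of PMM, its log2 signals being -5.97, -5.20 and -5.16 in LDM and -7.03, -5.44 and -5.23 in PMM, and no fold is given. The probes whose descriptions name a peroxiredoxin of Toxoplasma gondii and a superoxide dismutase of red clover were assigned to no gene and were not tested.

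Set by replicate number instead of by muscle, the 2 mitochondrial genes tested, SOD2 and PRDX3, stood apart from the 4 cytosolic ones. The mean of the replicate 1 arrays of both muscles was 2.49-fold, 3.16-fold and 1.76-fold that of the other arrays on the 3 SOD2 probes, 2.02-fold on the probe described as the cattle enzyme and 2.09-fold for PRDX3. Over all tested probes, 7.64% had replicate 1 arrays higher by at least 1 on the log2 scale. For SOD1 the ratio was 1.15, for catalase 1.20, for PRDX2 1.25, for the PRDX6 probes 0.924 and 1.28, and for the TXN probes 0.709 and 0.807. The replicate 1 arrays were thus lower than the others for TXN and for GPX1 (0.781). The median offset was 0.85 over the 10 tested genes of the mitochondrial content list, 0.49 over the skeletal muscle list and 0.39 over the wider redox list. Positive offsets were thus not particular to mitochondrial genes. It was -1.01 over the adipocyte list, -1.498 over the macrophage list, -0.72 over the endothelium list and -0.998 over the fibroblast list. This pattern was noticed in the data, and the part of the scan day or the animal in it cannot be told apart. The replicate 1 arrays shared no slide, and the part of the slides was not tested.

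**Figure D4:**
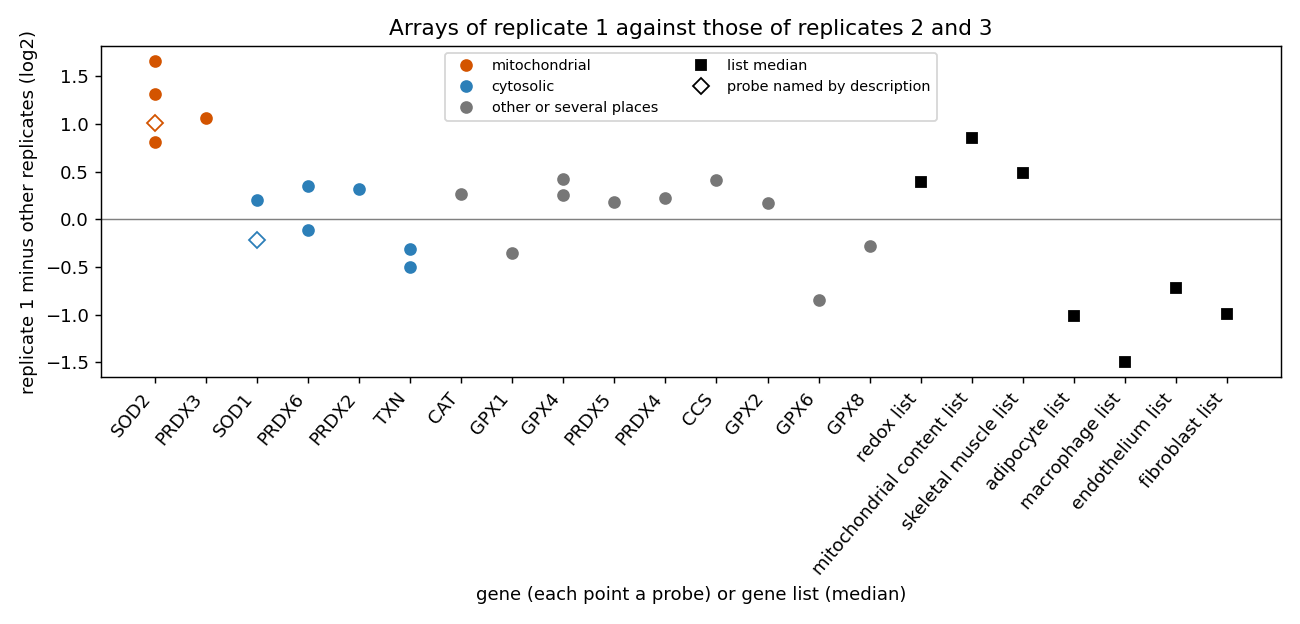
Mean log2 signal of the replicate 1 arrays (1 of each muscle) minus that of the arrays of replicates 2 and 3, for each tested antioxidant probe and as the median of each gene list with tested genes. The SOD2 and PRDX3 probes lie between 0.81 and 1.66, and the cytosolic probes between -0.50 and 0.35.

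The wider redox list, made of 66 genes of peroxide, thioredoxin and glutathione metabolism and their regulators, had 34 genes with a probe and 31 tested, of which 7 are among the enzymes described above. None was called in limma, 17 had a higher and 14 a lower mean in PMM, and the median change was 0.024 beside -0.04 over all tested probes. Without those 7 genes, 13 had a higher and 11 a lower mean, with a median of 0.051. At an unadjusted p under 0.05 in limma without the replicate block there was 1 gene of the 31, near the 2.63% of all tested probes. That gene was GLRX, a cytosolic glutaredoxin, which had log2 signals of 2.45, 2.68 and 2.34 in LDM and 3.37, 3.59 and 2.99 in PMM, without overlap. Its change was 0.83 (SE 0.31), with a limma adjusted p of 1.0. With the replicate block more genes of the list had an unadjusted limma p under 0.05. They were GLRX (0.0035), PPARGC1A (0.0050), GLRX5 (0.015), SIRT3 (0.024), PRDX2 (0.026), MGST3 (0.033), CCS (0.047) and GPX2 (0.048). Their adjusted p in that fit ran from 0.22 for GLRX to 0.445 for GPX2. More of all tested probes were under 0.05 there too, 2857 of 25834 against 679. The largest change of the list was that of PPARGC1A, a coactivator of mitochondrial biogenesis, with 2.53, 2.08 and 1.79 in LDM and 3.79, 2.67 and 2.63 in PMM, a change of 0.90 (SE 0.41). GLRX5, a mitochondrial glutaredoxin, changed by 0.59 (SE 0.42), SIRT3, a mitochondrial deacetylase, by 0.54 (SE 0.48) and MGST3, a microsomal glutathione transferase, by 0.51 (SE 0.28), all with an adjusted p of 1.0. Without PMM replicate 1 the changes were 0.52 for PPARGC1A, 0.32 for GLRX5 and 0.12 for SIRT3. Without LDM replicate 1 SIRT3 was at 0.90, and without LDM replicate 2 at 0.23, while GLRX5 was at 0.31 without LDM replicate 3 and at 0.95 without PMM replicate 3.

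The list of mitochondrial content had 10 tested genes of 24, and all 10 had a higher mean in PMM, with a median change of 0.40, although limma called none of them. MDH2, an enzyme of the citric acid cycle, changed by 0.58 (SE 0.53), and the succinate dehydrogenase subunits SDHA, SDHB and SDHD by 0.53, 0.50 and 0.49. VDAC1, a channel of the outer membrane, changed by 0.32, CS, citrate synthase, by 0.28 and HSPD1, a matrix chaperone, by 0.22. With the replicate block the unadjusted limma p was 0.026 for MDH2, 0.024 for SDHA, 0.042 for SDHB and 0.063 for SDHD. It was 0.13 for VDAC1, 0.22 for CS and 0.28 for HSPD1. The adjusted limma p of these genes in that fit ran from 0.37 for SDHA to 0.72 for HSPD1. Without PMM replicate 1 the changes were 0.057 for MDH2, 0.19 for SDHA, 0.27 for SDHB, 0.21 for SDHD and 0.070 for VDAC1, and those of CS and HSPD1 were negative (-0.11 and -0.25). The highest values without a single array were 0.97 for MDH2, without LDM replicate 1, and 0.53 for VDAC1, without PMM replicate 3. The mean difference of the list within pairs was 0.64, 0.38 and 0.16, and was largest in the pair of replicate 1. The same held for the skeletal muscle list (0.56, 0.38 and 0.26) and the endothelium list (0.82, 0.29 and 0.092). The arrays of that pair lay on different slides, while those of each other pair shared a slide. The part of the slides in these differences was not tested.

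Markers of other cell types gave values on both sides. In PMM, all 7 tested endothelium markers had a higher mean (median log2 change 0.38, the list's mean signal running from 0.78 to 2.29 in LDM and from 1.61 to 2.39 in PMM). All 6 tested fibroblast markers had a lower mean (median -0.64, from 1.07 to 2.15 in LDM and from 0.30 to 1.20 in PMM). The adipocyte list had 4 of 10 higher (median -0.15, from 1.97 to 2.92 in LDM and from 1.80 to 2.78 in PMM), and the macrophage list 4 of 7 (median 0.0010, from 0.22 to 2.39 in LDM and from 0.49 to 2.18 in PMM). The skeletal muscle list had 14 of 16 higher (median 0.21), with MB, the oxygen store myoglobin, at 1.47 (SE 0.41, limma adjusted p = 1.0). No marker was called, and the part of the cell makeup in the values of the antioxidant enzymes was not tested.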

How the data were processed

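The authors deposited linear spot intensities of the Cy3 channel, made with Agilent Feature Extraction 10.5.1.1, which subtracts local background. They were deposited without normalization across arrays, and the methods name no normalization or test. The value table held the same intensities within 0.005 units and no comparison columns. No spot was saturated, and 58.5% to 72.4% of spots per array were well above background. Each muscle had 3 arrays, and their number limits the precision.

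Controls were removed, as were the spots marked as outliers (6 to 161 on an array). Repeated spots were averaged, and log2 intensity minus the log2 75th percentile of all non-control spots was taken. Probes well above background on all 3 arrays of a muscle, with at least 2 values per muscle, were fitted with limma 3.58.1 (R 4.3.3; lmFit and eBayes, two-sided, Benjamini-Hochberg over all tested probes, threshold 0.05). Exact permutations over arrays used scipy 1.17.1. A gene is represented by its brightest probe with values on all 6 arrays, a condition added after the SOD2 outlier spot was seen. The fit was tested on simulated data.

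Probes were named through accessions (2945 probes) or gene numbers (1350) in a RefSeq table of Sscrofa11.1, else by the files (892). No coordinates were used, and 38416 probes had no gene name but stayed in the fit.

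The members and lists were chosen with earlier results of these data known. Named were all genes taken in, up to 8 genes of the redox and mitochondrial lists by absolute change (1 of them is not reported here), and examples of the marker lists. Deviations from the muscle mean correlated between arrays of the same number at 0.616, 0.697 and 0.56, and at -0.536 to -0.0106 otherwise. Since all 3 same-number values were over 0.1, the number was used as a pairing block in an alternative fit. This pairing comes from the data, and the study took both muscles from each of 3 pigs. Replicates 2 and 3 of both muscles shared a slide each, while the replicate 1 arrays lay on different slides.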

Additional observations from a re-analysis of the deposited data

How the results depend on the processing

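The count of antioxidant probes called by limma was 0 in the main setting and in all alternatives run, the replicate block included. That of the redox list was 0 in the main setting, with the replicate block and in the other alternatives in which it was counted. The redox list was not counted in the alternatives chosen after seeing the data, which are named below. The block changed no call of a gene named here, and SOD2 minus SOD1 was 0.25 with the replicate block too. Over all probes the count of calls was 8, against 300 with slide as a random block (correlation 0.845), 17 with the replicate block, 529 with that block and without both arrays of replicate 1, 3 under normexp and 0 under 12 of the alternatives, among them the 75th percentile over averaged probes, which was tried first. That alternative, the block with quantile normalization and the blocks without 1 replicate number were chosen after seeing the data. Of 476 values of 28 named genes under alternatives, 33 had the opposite sign and 0 passed the threshold. Normexp shifted the median of all tested probes to 0.19 and that of the members to -0.11, and gave -0.22 for CAT, -0.18 for SOD1, -0.12 for PRDX3, -0.033 for GPX8, -0.066 for CS, -0.039 for VDAC1 and -0.081 for HSPD1. GPX4 turned to 0.0037 with quantile normalization, 0.011 with the percentile over probes detected on all arrays and 0.00069 with the mean of its probes, GPX6 to -0.00087 and GPX8 to -0.033 with median centring, and GPX8 to -0.082 with slide as a block. Without single arrays, values ran from -0.22 to 0.64 for SOD2 minus SOD1, -0.39 to 0.30 for PRDX3 minus PRDX6, -0.16 to 0.72 for SOD2, -0.19 to 0.51 for PRDX3, -0.030 to 0.33 for SOD1, -0.059 to 0.29 for CAT, -0.39 to 0.019 for GPX1, -0.17 to 0.058 for GPX4, -0.30 to 0.48 for GPX6, -0.15 to 0.17 for GPX8, -0.32 to 0.023 for TXN, -0.11 to 0.51 for CS and -0.25 to 0.76 for HSPD1. The causes were not tested. PRDX2, PRDX4, PRDX5, PRDX6, CCS and GPX2 kept their sign in every setting run for single genes.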
